A study of Mus musculus with 4 samples.

Results

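Transcripts of 8 genes of the synaptic vesicle and its fusion machinery were examined in mouse prefrontal cortex (PFC), namely *Syn1*, *Syn2*, *Syp*, *Sv2a*, *Syt1*, *Snap25*, *Stx1a* and *Vamp2*. They were taken by symbol from the 23420 genes of the count tables, as a group set by their role, and all 8 passed the filter on low counts, which left 16232 genes to test. RNA came from PFC punches of C57BL6/J mice given bilateral AAV9 injections, and 2 samples carried *Ash1L* shRNA while 2 control samples carried a GFP virus. The knockdown virus drives its hairpin from a U6 promoter together with a GFP tag, so it is not restricted to one cell type, and the punches were cut by their fluorescence. By the study's methods the mice were injected at 5 weeks and tissue of 3 mice was pooled in each sample. The series description gives an age of 6 to 8 weeks and counts 3 knockdown and 2 control mice, and the methods call the control virus a scrambled shRNA AAV. Both groups share the injection, the virus type and GFP. The study describes infected neurons in the PFC, and each sample is RNA of all cells in the punch.

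A nerve terminal stores transmitter in vesicles and releases it when calcium enters. Vesicles fill, are tethered by synapsins, dock at the active zone and become ready to fuse as a SNARE complex forms between the vesicle protein synaptobrevin and the plasma membrane proteins syntaxin and SNAP-25. Synaptotagmin on the vesicle binds calcium and triggers fusion, after which endocytosis recovers the membrane. These transcripts are made by nearly all cortical neurons, and the proteins are carried to terminals that can lie outside the punch.

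All 8 transcripts had lower fitted levels in *Ash1L* shRNA than in control samples, with log2 fold changes from -0.69 in *Syt1* to -0.09 in *Sv2a* and a median of -0.36. *Syt1*, *Stx1a* and *Syn1* passed the study's limits for a DOWN gene, an unadjusted p under 0.05 and at least a 1.2-fold change. That is 3 of 8 members, or 37.5%, where 8.28% of all genes tested were DOWN and 8.61% were UP at the same limits. In 7 of the 8 genes, neither knockdown sample reached the lower of the controls, which held for 26.8% of all genes tested. A lower fitted level was found for 50.3% of all genes, and the median log2 fold change of all genes was -0.003. After Benjamini-Hochberg adjustment over all genes, 0 of the 8 members were under 0.05 in the edgeR quasi-likelihood test, against 0.00616% of all genes, and 3 had an unadjusted p under 0.05. DESeq2 also gave 0 members under an adjusted 0.05, and *Syp* and *Vamp2* joined its DOWN genes, which made 5 members where 7.79% of all genes were DOWN. In bulk tissue, fewer cells of a type and less RNA per cell cannot be told apart.

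Libraries held from 14251190 to 35764874 counts. The members had between 2067 counts (*Syn1* in control sample 1) and 95550 counts (*Snap25* in control sample 2). Counting error was therefore at most 2.2% of a value. The standard errors below come almost wholly from variation between samples, estimated in part from other genes. Together the 8 genes took 0.729% and 0.756% of all counts in the control samples and 0.653% and 0.521% in *Ash1L* shRNA samples 1 and 2. *Ash1l*, the target of the hairpin and a histone methyltransferase, had 245.0 and 290.1 CPM (counts divided by the TMM-adjusted size of the library) in the control samples and 215.6 and 137.5 in *Ash1L* shRNA samples 1 and 2. Its groups did not overlap, and it was lowest in *Ash1L* shRNA sample 2. Levels below are CPM on the same scale unless stated otherwise, and each group has n = 2.

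*Syn1* (ENSMUSG00000037217, mm10 chrX:20860511-20921004, minus strand) encodes synapsin I, which holds vesicles in the reserve pool. It stood at 146.4 and 173.3 CPM in control samples 1 and 2, and at 124.1 and 128.1 CPM in *Ash1L* shRNA samples 1 and 2. Both knockdown samples were below both controls, and they differed from each other by less than the controls did. The group means were 159.9 ± 19.0 CPM in control and 126.1 ± 2.79 CPM in *Ash1L* shRNA (SD, n = 2). The fitted log2 fold change, -0.34 with a standard error of 0.13, had a 95% confidence interval from -0.65 to -0.04 (edgeR's quasi-likelihood test, unadjusted p = 0.0322, adjusted p = 0.268).

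*Syn2* (ENSMUSG00000009394, chr6:115134902-115282006, plus strand), the gene of synapsin II, was expressed more highly and moved less. Its level was 527.6 and 600.4 CPM in the control samples and 502.5 and 505.0 CPM in the *Ash1L* shRNA samples. The groups did not overlap, but control sample 1 was only slightly above the knockdown samples. The log2 fold change of -0.16 had a standard error of 0.12 and an interval from -0.45 to 0.13, which includes 0 (edgeR's quasi-likelihood test, unadjusted p = 0.219).

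*Syp* (ENSMUSG00000031144, chrX:7638471-7653256, plus strand) encodes synaptophysin, the abundant vesicle membrane protein used as a terminal marker. It was measured at 941.8 and 1103 CPM in control and at 898.8 and 642.5 CPM in *Ash1L* shRNA samples 1 and 2. Knockdown sample 1 was close to control sample 1, and sample 2 was clearly lower. The log2 fold change was -0.41 (standard error 0.19, interval from -0.86 to 0.04, unadjusted p = 0.0696 in edgeR's quasi-likelihood test), and *Syp* was not called.

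*Sv2a* (ENSMUSG00000038486, chr3:96181151-96195521, plus strand), a vesicle glycoprotein and the binding site of the antiepileptic drug levetiracetam, was the member with the smallest change. It had 529.5 and 476.2 CPM in the control samples and 478.9 and 466.1 CPM in the *Ash1L* shRNA samples. It was the one member whose groups overlapped, since knockdown sample 1 lay above control sample 2. Its log2 fold change was -0.09 with an interval from -0.37 to 0.19, so a fall of up to about the size seen for *Syn1* is within the interval.

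*Syt1* (ENSMUSG00000035864, chr10:108497650-109010982, minus strand) encodes synaptotagmin 1, the calcium sensor of fast synchronous release, and had the largest change of the 8. Its level was 1759 and 2109 CPM in control and 1444 and 958.9 CPM in *Ash1L* shRNA samples 1 and 2. Both knockdown samples were below both controls, and sample 2 was far below sample 1. The means were 1934 ± 247 and 1202 ± 343 CPM (SD, n = 2), so the knockdown mean was 62.1% of the control mean. The log2 fold change was -0.69 (standard error 0.22, interval from -1.21 to -0.16, unadjusted p = 0.018, adjusted p = 0.260 in edgeR's quasi-likelihood test).

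*Stx1a* (ENSMUSG00000007207, chr5:135023482-135051100, plus strand) encodes syntaxin 1A, a SNARE of the plasma membrane. The control samples had nearly the same level, 306.8 and 318.5 CPM, and the *Ash1L* shRNA samples had 263.2 and 177.9 CPM. Here too sample 2 was the lower one, and the groups did not overlap. The means of 312.6 ± 8.25 and 220.6 ± 60.3 CPM (SD, n = 2) gave a log2 fold change of -0.50 (standard error 0.19, interval from -0.97 to -0.04, unadjusted p = 0.038, adjusted p = 0.278 in edgeR's quasi-likelihood test).

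*Snap25* (ENSMUSG00000027273, chr2:136713453-136782428, plus strand), the other plasma membrane SNARE and the target of botulinum toxin A, was the most abundant member. It reached 2881 and 2724 CPM in control and 2649 and 2002 CPM in *Ash1L* shRNA samples 1 and 2. Sample 1 was just under the controls and sample 2 well under them. The log2 fold change was -0.27 with an interval from -0.66 to 0.13 (edgeR's quasi-likelihood test, unadjusted p = 0.149).

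*Vamp2* (ENSMUSG00000020894, chr11:69088490-69092384, plus strand) encodes synaptobrevin 2, the SNARE of the vesicle. Its control samples were further apart than those of the other SNAREs, at 272.0 and 204.5 CPM, and its *Ash1L* shRNA samples had 192.4 and 175.6 CPM. Control sample 2 lay only just above knockdown sample 1. The log2 fold change was -0.37 with an interval from -0.76 to 0.02 (edgeR's quasi-likelihood test, unadjusted p = 0.0578), and without control sample 1 it was -0.14.

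**Figure D1:**
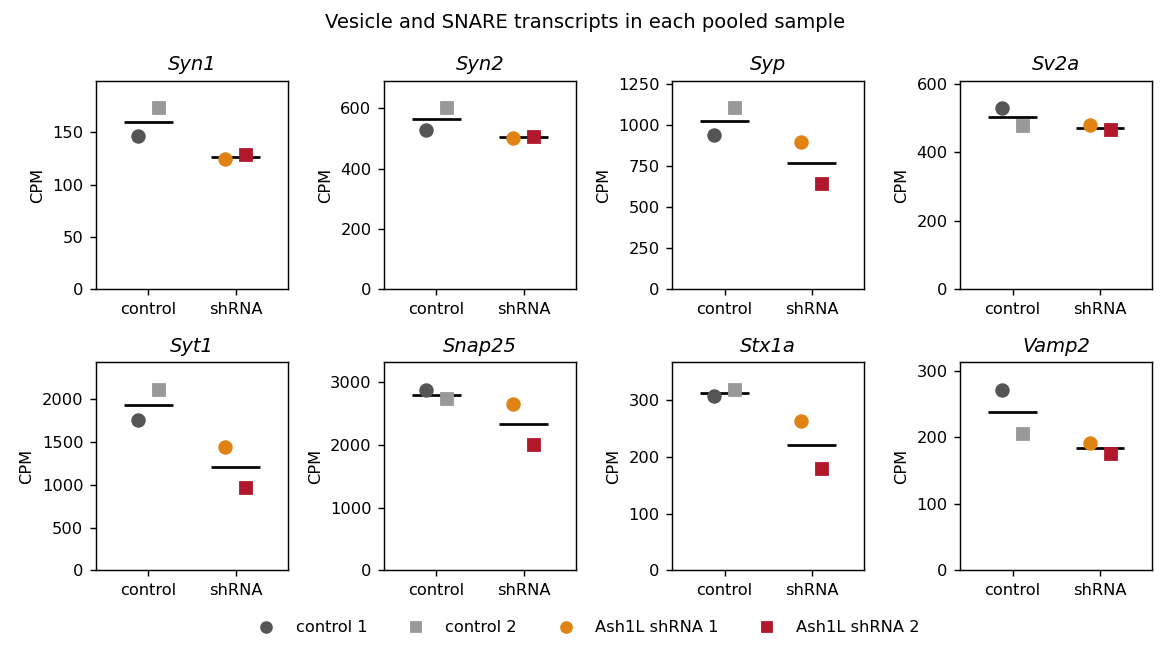
TMM-scaled CPM (axes start at 0) of the 8 genes in control samples 1 and 2 and *Ash1L* shRNA samples 1 and 2, with a line at each group mean. The groups overlap only for *Sv2a*, and *Ash1L* shRNA sample 2 is the lowest point for *Syp*, *Syt1*, *Snap25*, *Stx1a*, *Vamp2* and *Sv2a*.

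The knockdown samples were not alike across the 8 genes. Relative to the control mean, the median log2 difference of the members was -0.22 in *Ash1L* shRNA sample 1 and -0.46 in sample 2, with the control samples at -0.06 and 0.06. In 6 of 8 genes sample 2 was the lower one, and the synapsins *Syn1* and *Syn2* were the exceptions. Without *Ash1L* shRNA sample 2 the median log2 fold change was -0.22, and *Syn1* and *Syt1* were DOWN, where 5.05% of all genes were. Without sample 1 it was -0.47 and 5 members were DOWN, among them *Syp*, *Snap25* and *Vamp2* but not *Syn1*, where 16.5% of all genes were. Without sample 2 and without sample 1, the log2 fold change was -0.18 and -0.68 for *Syp*, -0.25 and -0.82 for *Stx1a*, -0.08 and -0.49 for *Snap25* and -0.42 and -1.02 for *Syt1*. Without control sample 2 only *Vamp2* was DOWN (1.86% of all genes), and without control sample 1 *Syn1* and *Syt1* were (4.14%). All 8 fitted changes stayed below 0 whichever sample was left out, the nearest to 0 being -0.001 for *Sv2a*. A correction for GC content left *Syt1* as the only DOWN member (8.2% of all genes), with unadjusted p-values of 0.0723 for *Syn1* and 0.0601 for *Stx1a* in edgeR's quasi-likelihood test.

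**Figure D2:**
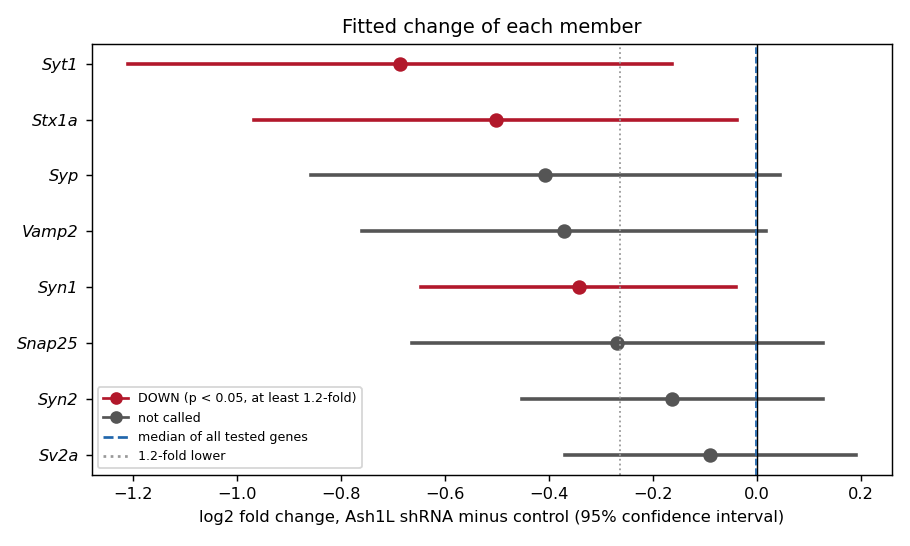
Fitted log2 fold change of each member, *Ash1L* shRNA minus control, with its 95% confidence interval, the 3 DOWN members in red. The intervals of *Syt1*, *Stx1a* and *Syn1* stay below 0, the other 5 include 0, and the points run from -0.69 to -0.09.

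The promoters are shown for the 3 members that were DOWN in the main fit. RefSeq windows of GRCm38.p6 (the assembly of mm10), 250 bases before to 50 after an annotated start, were matched for 6 of the 8 members in 8 windows: *Syn1*, *Syn2*, *Syp*, *Sv2a*, *Syt1* and *Stx1a*. The stretches below are read along the gene's strand and end just before the first start given by RefSeq or GENCODE. They are chrX:20921005-20921168 for *Syn1* (minus strand), chr10:109010983-109011225 for *Syt1* (minus strand) and chr5:135023232-135023481 for *Stx1a* (plus strand). Capitals mark the left arm of an RE1 element (the site of the repressor REST) and a cAMP response element (CRE) in *Syn1*, a pair of CCAAT boxes in *Syt1* and a GC box in *Stx1a*.
Syn1: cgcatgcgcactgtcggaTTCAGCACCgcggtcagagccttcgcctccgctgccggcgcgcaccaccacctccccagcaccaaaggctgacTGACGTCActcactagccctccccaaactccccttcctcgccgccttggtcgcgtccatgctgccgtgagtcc
Syt1: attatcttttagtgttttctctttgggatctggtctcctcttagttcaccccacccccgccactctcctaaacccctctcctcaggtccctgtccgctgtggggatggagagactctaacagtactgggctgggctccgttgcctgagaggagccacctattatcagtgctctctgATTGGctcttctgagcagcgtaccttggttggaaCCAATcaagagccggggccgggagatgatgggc
Stx1a: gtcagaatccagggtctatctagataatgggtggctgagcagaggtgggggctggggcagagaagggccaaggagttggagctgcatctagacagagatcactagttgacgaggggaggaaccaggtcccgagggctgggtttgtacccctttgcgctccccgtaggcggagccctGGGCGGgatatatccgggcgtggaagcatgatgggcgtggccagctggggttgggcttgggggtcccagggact

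The 3 stretches shared none of the capitalised motifs. On both strands, the RE1 arm TTCAGCACC matched 1 of the 8 member windows, that of *Syn1*, and 0.371% of all 32851 windows. The CRE, TGACGTCA, also matched *Syn1* alone, against 1.79% of all windows and 2.71% of those of tested genes. Its core TGACG, which is part of every CRE, matched *Syn1* and *Stx1a*, against 20.8% of all windows and 28.4% of those of tested genes. A GC box (GGGCGG) lay in windows of 5 members, *Syn2*, *Syp*, *Syt1*, *Stx1a* and *Sv2a*, in 35.7% of all windows and in 58.3% of the windows of tested genes, so the members' share is near that of tested genes. A CCAAT box was found for *Syn2* and *Syt1* (37.4% of all windows, 37.1% of those of tested genes) and TATAAA for none of them (13.6% and 7.79%). A match describes letters only and is no measure of binding. Among the DOWN members, the GC content was 68.3% in the *Syn1* window, 66.3% in that of *Stx1a* and 56.7% and 44% in those of *Syt1*. Among members not called, it was 68% for *Sv2a*, 59% for *Syp* and 62.3% and 51% for *Syn2*. The median over all windows was 52.7%, so a high GC content was not particular to the DOWN members.

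Levels were compared between genes as CPM per kilobase of exon, since longer transcripts collect more reads. In the control mean the order was *Snap25* (412.6), *Syt1* (232.0), *Syp* (196.2), *Stx1a* (117.3), *Sv2a* (108.5), *Syn2* (80.2), *Vamp2* (62.6) and *Syn1* (48.5 CPM per kilobase). All of them were abundant, from the 94.8th to the 99.8th percentile of tested genes. Both control samples had this order, and within the control group only the ranges of *Syt1* and *Syp* overlapped. Over all 4 samples, the ranges of *Stx1a* and *Sv2a* and those of *Vamp2* and *Syn1* overlapped as well. The range of *Stx1a*, from 66.7 to 119.5, also overlapped those of *Syt1*, *Syn2* and *Vamp2*. *Stx1a* stood below *Sv2a* in both *Ash1L* shRNA samples, and in sample 2 it also stood below *Syn2*, with *Syp* above *Syt1*.

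The balance between a member and a close relative was taken within each sample as a ratio of CPM per kilobase, which does not depend on the scaling of the library. *Vamp2* and *Vamp1* encode the synaptobrevins of the vesicle. Their ratio was 5.50 and 7.41 in the control samples and 3.56 and 2.89 in the *Ash1L* shRNA samples, a log2 difference of -0.99. *Vamp1* itself had 131.9 and 73.6 CPM in control and 144.3 and 162.3 CPM in *Ash1L* shRNA samples (log2 fold change 0.58, edgeR's quasi-likelihood test, unadjusted p = 0.0757), so the ratio moved from both sides and its control samples were far apart.

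The ratio of *Snap25* to *Snap23*, its relative in non-neuronal secretion, was 110 and 106 in control and 91.7 and 74.1 in *Ash1L* shRNA samples. *Snap23* had between 16.2 and 18.3 CPM in the 4 samples, so this ratio followed *Snap25*. The ratio of *Syn1* to *Syn2* was 0.591 and 0.615 in control and 0.526 and 0.540 in *Ash1L* shRNA samples, a small difference that was larger than the gap within either group. With 2 samples a group, an exact permutation test cannot give a two-sided p below 0.333, so no p is given for these ratios.

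Other pairs overlapped between the groups. *Sv2a* to *Sv2b* gave 1.04 and 0.721 in control and 0.921 and 0.859 in *Ash1L* shRNA samples. *Syt1* to *Syt7*, a slower calcium sensor, gave 6.00 and 6.91 against 6.50 and 4.56, and *Syt1* to *Syt2*, the fast sensor of other synapses, gave 77.9 and 140 against 108 and 88.0. Thus *Syt7* and *Syt2* were lower too.

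**Figure D3:**
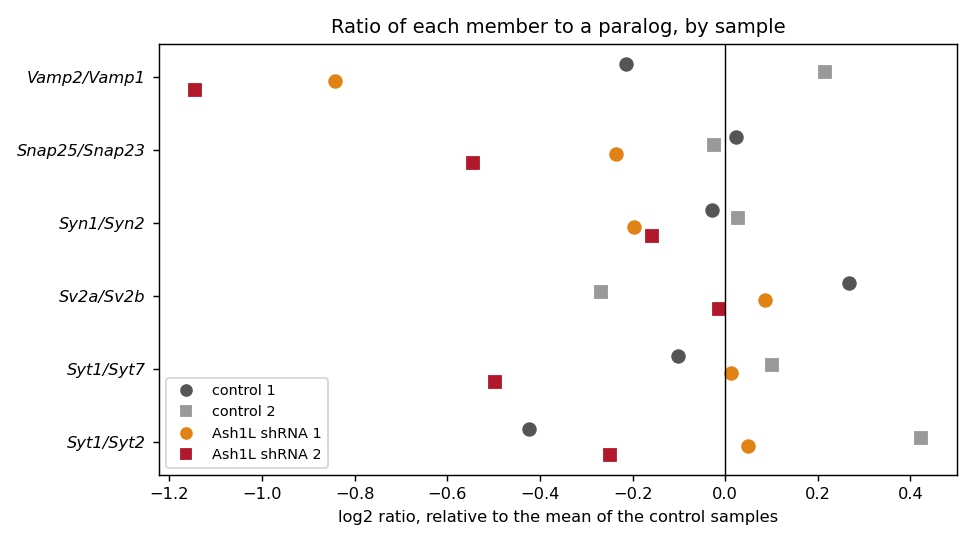
Log2 ratio of each member to a paralog in the 4 samples, centred on the mean of the control samples. The *Ash1L* shRNA samples lie left of both controls for *Vamp2/Vamp1*, *Snap25/Snap23* and *Syn1/Syn2*, and overlap them in the other 3 pairs.

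Genes that act with the members were counted in 6 lists by role, 116 tested genes in all. Of these, 16 were DOWN (13.8%) and 9 were UP, where 8.28% of all genes were DOWN and 8.61% UP. Their median log2 fold change was -0.10. The counts of called genes in these lists moved widely with the sample left out, and so did those of all genes. Of 11 tested vesicle protein paralogs, 1 was DOWN and 1 was UP (9.09% each way, near the 8.28% and 8.61% of all genes), with a median log2 fold change of -0.22. *Syngr3*, a synaptogyrin of the vesicle membrane, fell from 145.0 and 146.6 CPM to 123.2 and 95.5 CPM (log2 fold change -0.41). *Sv2c*, a member of the SV2 family most abundant in the basal ganglia, rose from 20.3 and 11.7 CPM to 27.6 and 63.7 CPM (1.53), with most of the rise in *Ash1L* shRNA sample 2. The most abundant of the list, *Sv2b*, *Syngr1* and *Svop*, had log2 fold changes of -0.14, -0.22 and -0.22 and were not called.

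Of 15 tested synaptotagmins beside *Syt1*, 5 were DOWN (33.3%) and 1 was UP, where 8.28% and 8.61% of all genes were. Their median log2 fold change was -0.31. *Syt7* had 263.2 and 273.9 CPM in control and 199.4 and 188.6 CPM in *Ash1L* shRNA samples. Its change of -0.47 on the log2 scale (standard error 0.11, unadjusted p = 0.00446, adjusted p = 0.253 in edgeR's quasi-likelihood test) was alike in both knockdown samples, unlike that of *Syt1*. The other DOWN synaptotagmins were *Syt3*, *Syt17*, *Syt2* and *Syt9*, with log2 fold changes of -0.55, -0.52, -0.62 and -0.66. *Syt12*, a form that does not bind calcium, rose from 40.0 and 40.3 CPM to 48.6 and 66.7 CPM. The abundant *Syt11*, *Syt4* and *Syt13* were not called, at -0.31, 0.02 and -0.23, and the value of *Syt4* changed sign with a GC correction and with 2 of the 4 samples left out.

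The SNAREs outside the list of members did not share its direction. None of 13 tested was DOWN and 2 were UP, where 8.28% and 8.61% of all genes were, and their median log2 fold change was 0.12. *Vamp4*, a SNARE of the trans-Golgi network and endosomes, rose from 74.5 and 62.7 CPM in control to 91.2 and 131.1 CPM in *Ash1L* shRNA samples (log2 fold change 0.70, standard error 0.20). *Snap29*, which serves fusion of intracellular membranes and autophagosomes, rose from 33.7 and 30.3 CPM to 39.0 and 41.5 CPM (0.33). *Snap47*, the most abundant of the list, had a value of 0.17 and was not called. Whether this list differs from the members was not tested.

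Among 27 tested regulators of SNARE assembly, 6 were DOWN (22.2%) and 1 was UP, where 8.28% and 8.61% of all genes were. Their median log2 fold change was -0.13. *Cplx1*, a complexin that clamps and promotes fusion on the SNARE complex, had 317.2 and 320.4 CPM in control and 242.8 and 150.1 CPM in *Ash1L* shRNA samples (log2 fold change -0.70, standard error 0.23). *Rph3a*, encoding the Rab3 effector rabphilin, fell from 292.6 and 270.9 CPM to 201.8 and 151.5 CPM (-0.67). *Rab3a*, the main vesicle GTPase, fell from 320.2 and 436.6 CPM to 300.8 and 202.9 CPM (-0.59), while its relative *Rab3c* rose from 613.1 and 536.8 CPM to 695.0 and 760.8 CPM (0.34). *Sncb*, *Snapin* and *Prrt2* were DOWN with changes of -0.53, -0.56 and -0.48.

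The most abundant regulators were, apart from *Rab3c*, not called. *Nsf*, the ATPase that takes SNARE complexes apart, had 1089 and 1012 CPM in control and 1164 and 1135 CPM in *Ash1L* shRNA samples. *Napb* and *Cplx2* had values of -0.10 and -0.24.

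Genes for filling vesicles with transmitter gave no DOWN gene among 22 tested and 4 UP, where 8.28% and 8.61% of all genes were. Their median log2 fold change was 0.005. *Atp6v1b2* and *Atp6v1a* encode catalytic-head subunits of the proton pump that energises vesicles and also acidifies lysosomes. *Atp6v1b2* rose from 740.4 and 741.5 CPM to 955.2 and 1052 CPM (log2 fold change 0.44, standard error 0.12). *Atp6v1a* rose from 720.3 and 746.3 CPM to 881.9 and 941.8 CPM (0.31), and the accessory subunit *Atp6ap2* from 278.4 and 307.3 CPM to 365.3 and 365.4 CPM (0.32). *Slc18a2*, the vesicular monoamine transporter, rose from a low level of 9.28 and 8.81 CPM to 10.6 and 19.1 CPM. *Atp6v0a1* of the membrane sector and *Slc17a7*, the vesicular glutamate transporter VGLUT1, had values of -0.19 and -0.30 and were not called. Scaled to pan-neuronal markers, 1 gene of the list was UP, where 1266 of all 16232 genes were. The UP calls of this list also depended on which samples were kept.

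Of 28 tested genes of vesicle endocytosis, 4 were DOWN (14.3%) and none UP, where 8.28% and 8.61% of all genes were. Their median log2 fold change was -0.08. *Dnm1*, the neuronal dynamin that cuts vesicles from the membrane, fell from 915.3 and 947.2 CPM to 734.5 and 638.1 CPM (log2 fold change -0.44, standard error 0.13). *Dnm3*, another dynamin, fell from 152.6 and 145.2 CPM to 115.6 and 105.6 CPM (-0.43). The scaffold gene *Itsn1* changed by -0.43 and *Pacsin1*, whose product binds dynamin and curves membrane, by -0.77. The coat gene *Cltc* and the uncoating genes *Hspa8* and *Dnajc6* were also abundant and not called, at -0.27, 0.10 and 0.10.

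**Figure D4:**
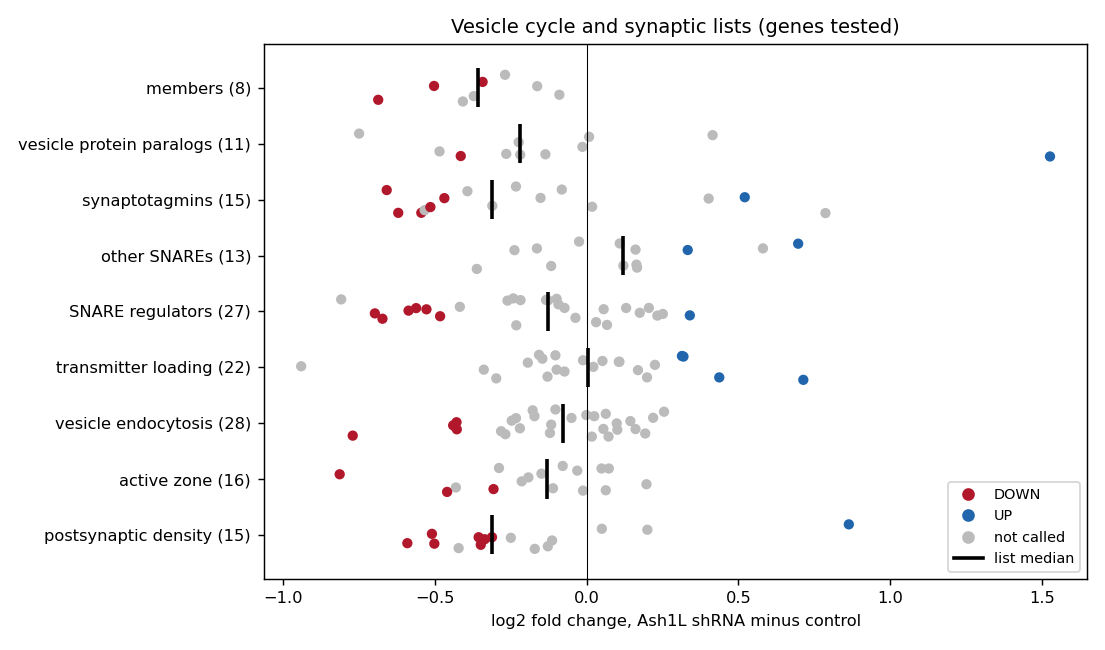
Log2 fold change of every tested gene in the members, the 6 vesicle cycle lists, the active zone and the postsynaptic density, with the list median as a black bar and DOWN and UP genes in red and blue. The members' median is at -0.36, the medians of other SNAREs and transmitter loading are at 0.12 and 0.005, and every called gene for transmitter loading is UP.

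At neighbouring structures of the synapse, 3 of 16 tested genes of the active zone were DOWN (18.8%, against 8.28% of all genes). They were *Bsn*, *Rims2* and *Ppfia2*, and none of the list was UP. The largest of these changes was -0.81 in *Bsn*. Of 15 tested genes of the postsynaptic density, 7 were DOWN (46.7%) and 1 was UP, where 8.28% and 8.61% of all genes were. Their median log2 fold change was -0.31, so lower transcripts were not limited to the presynaptic lists.

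Markers of cell classes moved with the samples, and their values stand beside those of the members. The 12 pan-neuronal markers summed to 5004 and 5029 CPM in control and to 4852 and 4997 CPM in *Ash1L* shRNA samples. None of the 12 was called, where 8.28% of all genes were DOWN and 8.61% UP. Their median log2 fold change was -0.004, but single markers ran from -0.28 (*Eno2*) to 0.29 (*Nefh*). Both knockdown samples were below both controls for 4 of them (33.3%, against 26.8% of all genes) and above both for 3 (4296 of all 16232 genes). In an added alternative, set up after the values were known, samples were scaled to these markers in place of TMM. The members' median log2 fold change was -0.37 and 4 members were DOWN, *Vamp2* being added, where 8.45% of all genes were DOWN. Lists for neuron classes had lower sums, and 8.28% of all genes were DOWN in the main fit. Of 8 excitatory neuron markers 5 were DOWN (62.5%, summed 2558 and 3025 CPM in control, 2345 and 1953 CPM in *Ash1L* shRNA samples). Of 10 interneuron markers 5 were DOWN (50%, 1167 and 1111 against 964.8 and 885.1 CPM). The interneuron markers *Gad2*, *Npy* and *Slc32a1* went the other way, with log2 fold changes of 0.28, 0.15 and 0.11, and were not called.

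Glial lists also differed. Astrocyte markers were DOWN in 7 of 10 cases (70%, summed 5666 and 5988 CPM in control, 4578 and 3371 CPM in *Ash1L* shRNA samples). The astrocyte markers *Gfap* and *Aqp4* were not lower, with log2 fold changes of 0.001 and 0.107. Oligodendrocyte markers were DOWN in 2 of 10 cases (20%, 2767 and 3155 against 2948 and 2607 CPM), where 8.28% of all genes were. Microglia markers had none called of 10, with sums of 983.9 and 1016 CPM in control, 1362 CPM in *Ash1L* shRNA sample 1 and 528.0 CPM in sample 2, so they did not follow the members in sample 1. Endothelial markers had 1 of 8 UP (305.8 and 273.4 against 320.1 and 288.5 CPM), where 8.61% of all genes were UP. The part of cell composition in the members' result was not tested.

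**Figure D5:**
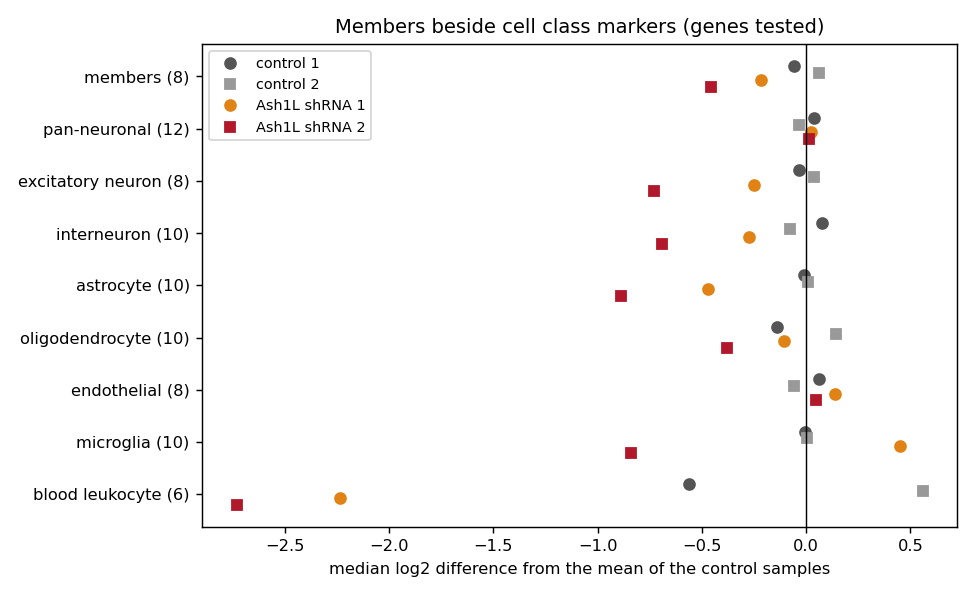
Median log2 difference of the members and of 8 marker lists from the mean of the control samples, for each of the 4 samples. The members are at -0.22 and -0.46 in *Ash1L* shRNA samples 1 and 2, the pan-neuronal list at 0.02 and 0.01, the excitatory list at -0.25 and -0.73 and the astrocyte list at -0.47 and -0.89.

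Several members share their locus with other genes, and the strand setting of the authors' counting is not given in the sources used here. *Timp1*, a metalloproteinase inhibitor, lies within *Syn1* on the other strand (chrX:20870166-20874735) with no shared exon bases. It had 1.84 and 2.91 CPM in control and 2.63 and 7.82 CPM in *Ash1L* shRNA samples, where the lowest level of *Syn1* was 124.1 CPM. *Timp4* lies within *Syn2* on the other strand with 90 shared exon bases, had at most 25.4 CPM and a log2 fold change of -0.51, and was not called. *Timp3*, which lies within *Syn3* with 1733 shared exon bases, had a value of 0.03 that changed sign with a GC correction and without *Ash1L* shRNA sample 2. The last exon of *Syn1* overlaps *Araf* by 9 bases, and an antisense gene, *Gm14703*, shares 875 exon bases with *Syp*.

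Over the 4 samples, the genes nearest to the members' median profile were *Gpr137*, *Smad3*, *Slc23a2*, *Nadk* and *Slc30a5*, with root mean square log2 differences from 0.009 to 0.017 among 6502 genes with a mean log2 CPM of at least 5. The members themselves lay between 0.099 (*Snap25*) and 0.298 (*Syt1*) from it. Of the 6502 genes, 1712 lay as near as the median member at 0.167, so the profile is common among these genes and 4 points cannot tell genes apart.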

How the data were processed

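PFC RNA was measured in 4 pooled samples by stranded, ribosome-depleted RNA-seq. The authors aligned reads to mm10 with STAR and made gene counts with featureCounts. The authors deposited these raw counts by gene symbol (the labels' protocol names Cutadapt and TopHat2 instead). Totals ran from 14251190 to 35764874 counts. Genes were filtered with filterByExpr, scaled by TMM and tested with the quasi-likelihood F test of edgeR 4.0.16 (R 4.3.3), comparing the knockdown with the control samples, and p-values were adjusted by Benjamini-Hochberg over 16232 genes. Standard errors were the log2 fold change over the square root of F. DOWN and UP mean an unadjusted p under 0.05 and at least a 1.2-fold change. The common biological coefficient of variation was 0.173. Chi-square per degree of freedom between replicates was 13 for control and 37 for *Ash1L* shRNA, so they are not repeated counts of 1 library. P-values measure the spread between these pools.

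Per-sample differences used log2(CPM + 0.05). Exon lengths, coordinates and GC content came from GENCODE vM21, matched by symbol for 93.6% of tested genes. Simulated data gave calls for 97% of genes changed 2-fold and 4.57% of unchanged genes, over 16049 genes. Every simulated gene had the dispersion of the trend, and only well-expressed genes were changed, by 2-fold or more. These shares therefore do not give the power for the members' smaller changes or the error rate in these data. Alternatives were DESeq2 1.42.0, the likelihood ratio test, other scalings and filters, GC and length offsets, a replicate block, leaving out each sample, and a 1.5-fold limit. Members and lists were chosen with earlier results of these data known. Named genes are all members, *Ash1l*, the 4 most abundant and every called gene of each vesicle cycle list, the *Timp* genes, the 5 nearest profiles and the paralogs in ratios. Other genes were named after their values were seen. Not every listed gene is reported here.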

Additional observations from a re-analysis of the deposited data

How the results depend on the processing

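The members' median log2 fold change stayed between -0.37 and -0.31 in the alternatives that kept all samples, and between -0.47 and -0.22 with 1 sample left out. The number of DOWN members depended more on the settings. With the share of all genes DOWN in parentheses, it was 5 with DESeq2 (7.79%) and with no filter beyond 1 count (7.51%), 1 with a GC content offset (8.2%), 1 with the replicate block and GC offset combined (5.69%), 1 at a 1.5-fold limit (*Syt1*), and from 1 to 5 with 1 sample left out. *Syt1* was DOWN in 18 of 19 alternatives, *Stx1a* in 14 and *Syn1* in 11. Adjusted p-values of *Syt1* ran as low as 0.0559 with DESeq2, and without *Ash1L* shRNA sample 1 *Syt1* (0.00668), *Stx1a* (0.00637), *Syp* (0.0208) and *Snap25* (0.0444) were under 0.05, as were 2502 of all genes. Of the vesicle cycle lists, 6 genes were DOWN and 3 UP at a 1.5-fold limit, and with 1 sample left out from 6 to 34 were DOWN and from 0 to 15 UP. A sample alone in its group was assumed to vary like the others. Over all genes, 1344 were DOWN and 1397 UP. Without control sample 1 these were 699 and 856, without control sample 2 306 and 423, without *Ash1L* shRNA sample 1 2718 and 2368, and without sample 2 842 and 1043. An adjusted p under 0.05 was reached by 1 gene with the quasi-likelihood test, 421 with DESeq2 and 479 with the likelihood ratio test. The causes were not tested.

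Same-numbered samples are different pools, and their deviations from the group means had a correlation of -0.11, so the numbers were not taken as pairs. With the replicate block, *Syt1* and *Stx1a* were DOWN (2 members, 6.28% of all genes) and the median was -0.35. The vesicle cycle lists had 14 DOWN and 5 UP with the block, where 1052 of all 16232 genes were UP. They also had 5 UP with the block and either offset, where 1120 (length) and 979 (GC) of all genes were. Crossed pairing, chosen after seeing the data, gave 4 members DOWN, where 10.7% of all genes were. Of gene values near 0, *Syt4* was -0.016 with the GC offset (-0.016 with the block) and from -0.076 to 0.123 with 1 sample left out. *Timp3* was -0.007 with the GC offset, -0.017 with the block added and from -0.169 to 0.201 with 1 sample left out. In the same fits *Napb* ran from -0.279 to 0.060 and *Sv2b* from -0.304 to 0.063. Having 2 samples a group limits the precision more than depth does.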

Other observations

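Transcripts of blood leukocytes were low and differed between the groups. Of 6 tested markers of 8 listed, 5 were DOWN (83.3%, against 8.28% of all genes). The list summed to 40.7 and 77.0 CPM in the control samples and to 32.1 and 16.5 CPM in *Ash1L* shRNA samples 1 and 2. Both knockdown samples were below both controls for all 6 tested markers, which held for 26.8% of all genes. The control samples differed from each other, with the higher sum in control sample 2.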
